A study of Drosophila melanogaster with 2 samples.

Results

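The 300 strongest reproducible peaks of GFP-tagged Nemo in fly embryos are described here by where they lie, which genes they lie at, what sequence surrounds them and how they ranked in each replicate. They were chosen by their signal value, the height that the authors' peak caller gave each peak, as the 300 highest of the 9299 peaks in the authors' IDR list, which keeps peaks whose ranking recurred in both replicates (IDR, irreproducible discovery rate). The other 8999 peaks of that list are the set they are compared with. Chromatin immunoprecipitation and sequencing (ChIP-seq) was done on whole Drosophila melanogaster embryos, 0 to 24 h old and of both sexes, from the transgenic strain nmo-GFP. In that strain GFP is joined to the C-terminal end of nmo in a stable insertion, and the labels name no promoter for it. The 2 samples, biological replicates 2 and 3, form 1 group, come from separate biosamples of 1 fly line and were precipitated with an antibody against GFP (a shorter label names nmo as the antibody's target). No untagged, input or mock sample was analysed here, so it was not tested which of these places would also be recovered without Nemo.

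Nemo belongs to the Nemo-like kinases, relatives of the MAP kinases that add phosphate to transcription factors and signalling proteins. In flies it is known for tissue polarity and for tuning Wingless and Dpp signals. It is not known as a sequence-specific DNA-binding protein. Fly promoters fall into broad kinds: those of widely used genes often carry the DRE, to which the factor DREF binds, Motif 1 (bound by M1BP) or Motif 7, many lie head to head with a neighbour so that a pair of genes shares 1 promoter region, and those of regulated genes more often carry a TATA box or GAGA repeats, bound by the GAGA factor Trl.

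The windows around 5 of the 11 strongest summits are shown because the centre of the peaks, mostly A and T with few of the known elements, recurs below as a measured difference. Each is 151 bases of the chromosome's plus strand (dm6, RefSeq Release 6 sequence) with the summit in the middle, and capitals mark any of the 16 consensus sequences searched or the 7-base element CTACGCC described below. The first 2 windows lie at the promoters of cu, which encodes Nocturnin (rank 1, 3R:11197226-11197376), and CG14100 (rank 2, 3L:19590538-19590688). The window at rank 4 (3R:15229457-15229607) lies at the promoter shared by the arginine methyltransferase gene Art3 and mRpS10. That at rank 5 (2L:480982-481132) lies in an intron of ush 5′ of the zinc finger factor gene cbt. That at rank 11 (3L:14759446-14759596) lies in an intron of Trl.
cu: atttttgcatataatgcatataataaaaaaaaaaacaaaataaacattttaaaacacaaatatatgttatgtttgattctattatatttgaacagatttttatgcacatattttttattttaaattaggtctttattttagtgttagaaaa
CG14100: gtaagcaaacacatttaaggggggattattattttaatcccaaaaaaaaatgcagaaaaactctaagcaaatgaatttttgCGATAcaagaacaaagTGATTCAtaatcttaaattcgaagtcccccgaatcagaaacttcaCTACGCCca
Art3: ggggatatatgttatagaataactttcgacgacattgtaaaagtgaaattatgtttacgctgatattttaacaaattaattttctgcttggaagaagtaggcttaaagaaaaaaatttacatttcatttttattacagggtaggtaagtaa
cbt: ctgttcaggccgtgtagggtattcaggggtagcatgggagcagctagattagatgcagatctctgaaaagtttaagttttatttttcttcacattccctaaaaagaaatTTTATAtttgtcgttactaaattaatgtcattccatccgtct
Trl: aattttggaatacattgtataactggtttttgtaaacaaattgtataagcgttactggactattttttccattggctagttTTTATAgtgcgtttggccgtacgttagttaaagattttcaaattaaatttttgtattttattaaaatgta
The G+C content of these windows was 15.9% at cu, 33.8% at CG14100, 27.2% at Art3, 36.4% at cbt and 25.8% at Trl. The windows of cu and Art3 held none of the sequences searched. That of CG14100 held CGATA, which the DRE contains, the AP-1 site and, at its end, CTACGCC, and those of cbt and Trl held 1 TATA box each.

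A second set shows CTACGCC, the sequence that stood out most between these windows and the others, where it lay within 100 bp of a summit. The last 2 lines were added because they lack a feature that the others share. Each line is 37 bases read 5′ to 3′ on the strand that spells CTACGCC, with those 7 bases in capitals.
CG14100, rank 2: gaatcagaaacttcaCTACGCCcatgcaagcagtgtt
Ugalt, rank 3: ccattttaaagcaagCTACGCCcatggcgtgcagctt
CG5611, rank 15: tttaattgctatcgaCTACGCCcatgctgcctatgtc
Tcs5, rank 16: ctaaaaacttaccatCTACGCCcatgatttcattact
mRpL23, rank 43: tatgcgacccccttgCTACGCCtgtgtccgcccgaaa
fws, rank 109: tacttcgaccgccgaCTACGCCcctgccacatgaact
Hpf1, rank 169: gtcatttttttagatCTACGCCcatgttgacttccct
CG16753, rank 251: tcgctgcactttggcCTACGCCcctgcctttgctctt
Tlk, rank 73: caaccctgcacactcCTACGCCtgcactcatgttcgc
MFS10, rank 274: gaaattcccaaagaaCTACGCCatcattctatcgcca
In the first 8 lines the element is followed by any 2 bases and then TG, and in the lines of Tlk and MFS10 it is not. A second site at MFS10, 52 bp from the summit and not shown, is followed by TG in that spacing. Other sites within 100 bp of a summit, some with TG in that spacing and some without, are not shown either. That feature was noticed after the sequences had been read, and its count over all sites is given below. The windows lie at chr3L:19590665-19590701 for CG14100, chrX:2703948-2703984 for Ugalt, chr3R:27636065-27636101 for CG5611, chr3L:5139552-5139588 for Tcs5, chr3L:2373514-2373550 for mRpL23, chr2L:17481181-17481217 for fws, chr3R:5791665-5791701 for Hpf1, chr3L:3060865-3060901 for CG16753, chrX:3742106-3742142 for Tlk and chrX:13131311-13131347 for MFS10. Those of CG5611, mRpL23, Hpf1 and Tlk are read on the minus strand.

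The signal value of the 300 peaks ran from 7478 at rank 1 to 1653 at rank 300, with a median of 2242 and quartiles of 1886 and 2825, against 166 to 1649 with a median of 324 in the other 8999. It fell quickly: 269 of the 300 were below 0.5 of the first. The threshold cut through a smooth run of values, with mamo at 1657, crp at 1655 and Raf at 1653 as the last 3 inside and CG13894 at 1649, RpS27 at 1648 and dnc at 1647 as the first 3 outside. All 300 carried the list's highest −log10 q-value, 4.27. How many of the other 8999 also carried it was not counted, so it is not read as a mark of these peaks. The peaks were 347 to 896 bp wide (median 461.5 bp, against 418 bp in the other peaks) and covered 143 kb, and 4 of them overlapped another. The median of the other peaks blends unlike tiers. It was 401 bp at ranks 301 to 1000, 296 bp at ranks 1001 to 3000 and 436 bp beyond, where the upper quartile was also 436 bp. Signal values and replicate ranks chose these peaks and are given as a description. Read depth is unknown from the deposited lists, so the 95% intervals below (Wilson for a share, Newcombe for a difference) cover only the counting of peaks, and neighbouring peaks are not independent.

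Most of the strongest peaks lay just upstream of protein-coding genes, and more often so than the other peaks. A summit within 500 bp of a protein-coding start site was found for 184 of the 300 (61.3%, interval 55.7 to 66.7), against 49% of the other peaks, a difference of 12.4 percentage points (6.64 to 17.8). Introns held 76 (25.3% against 31.3%, difference -5.97 points, -10.7 to -0.672) and intergenic sequence 23 (7.67% against 15.3%, difference -7.65 points, -10.3 to -4.00). Another 11 lay within 500 bp of the start of a gene that is not protein-coding, all of them non-coding RNA genes, 4 in other exons and 2 in 5′ UTRs. None lay in coding sequence or in a 3′ UTR (0 of 300, which allows up to 1.26% by the Wilson interval). The 300 strongest peaks of replicate 2 alone gave a promoter share of 60.3% and those of replicate 3 60.7%. These lists hold 267 and 285 of the members, so the closeness of such values, here and below, is partly built in. The promoter share was 55.6% at ranks 301 to 1000, 53.9% at ranks 1001 to 3000 and 46.7% beyond.

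**Figure D1:**
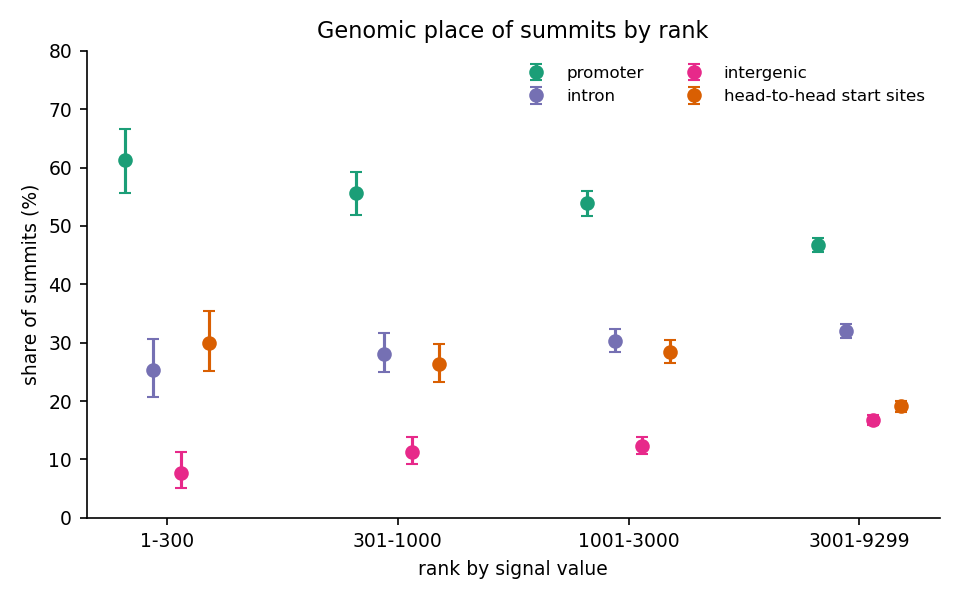
Share of summits (percent, with 95% Wilson intervals) in promoters, introns and intergenic sequence and at head-to-head start sites, in 4 tiers of rank by signal value. The 300 strongest peaks, at the left, have the highest promoter share (61.3%) and the lowest intergenic share (7.67%).

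Away from promoters, the strongest members were spread over introns, intergenic sequence and non-coding start sites. The leading intron peaks beyond rank 15 were in HmgZ, which encodes an HMG-box chromatin protein (rank 18, signal value 4284, -595 bp from a start site), and in CG32772 (rank 24, 4104). In the intron class, 11 of 76 summits lay inside a gene other than the nearest one, as at rank 5, nearest to cbt but inside ush. The strongest intergenic peak was nearest to chinmo (offset -12474 bp), a BTB zinc finger gene of stem cell and temporal identity (rank 21, 4239), followed by peaks nearest to CG13323 (rank 29, 3872), CG31668 (rank 35, 3593), the mitotic cyclin gene CycB (rank 46, 3380) and ph-d, a Polycomb-group gene (rank 58, 3070). Among non-coding start sites the strongest was that of lncRNA:CR44339 (offset -149 bp, rank 32, 3734), where the nearest protein-coding gene is the Polycomb-group gene Psc (offset -4224 bp). In exons outside coding genes, ranks 23 (4150) and 52 (3166) lay on X at -548 and 508 bp from the start of lncRNA:CR44619. The 5′ UTR peaks were in baz, a cell polarity gene (rank 123), and Raf, the MAP kinase cascade kinase gene (rank 300). Only 37 of the 300 summits (12.3%, against 21.0% of the other peaks) were over 5000 bp from a protein-coding start site. The farthest were in an intron of mamo (offset 42255 bp), upstream of CG43245 (-31951 and -19175 bp) and in introns of sbb (22077 and 18811 bp). The tagged gene nmo had 1 member, an intron peak at rank 261 (3L, summit 7989008, signal value 1762, rank 279 in replicate 2 and 256 in replicate 3).

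Near start sites, the strongest summits sat farther upstream than the others. Of the 195 summits within 500 bp of any start site, 167 were upstream of it (85.6%, against 82.1%, difference 3.53 points, -2.18 to 7.92, an interval that includes 0). Their median offset was -151 bp with quartiles of -212 and -104, against -87 bp with quartiles of -172 and -20 in the other peaks. The median was -156 bp for the 300 strongest peaks of replicate 2 and -147 bp for those of replicate 3. It was -149 bp at ranks 301 to 1000, -116 bp at ranks 1001 to 3000 and -66 bp beyond, so the strongest 300 did not stand apart from the next tier. At promoters with a single direction the median was -198 bp against -100 bp, and at head-to-head promoters -114 bp against -78 bp.

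**Figure D2:**
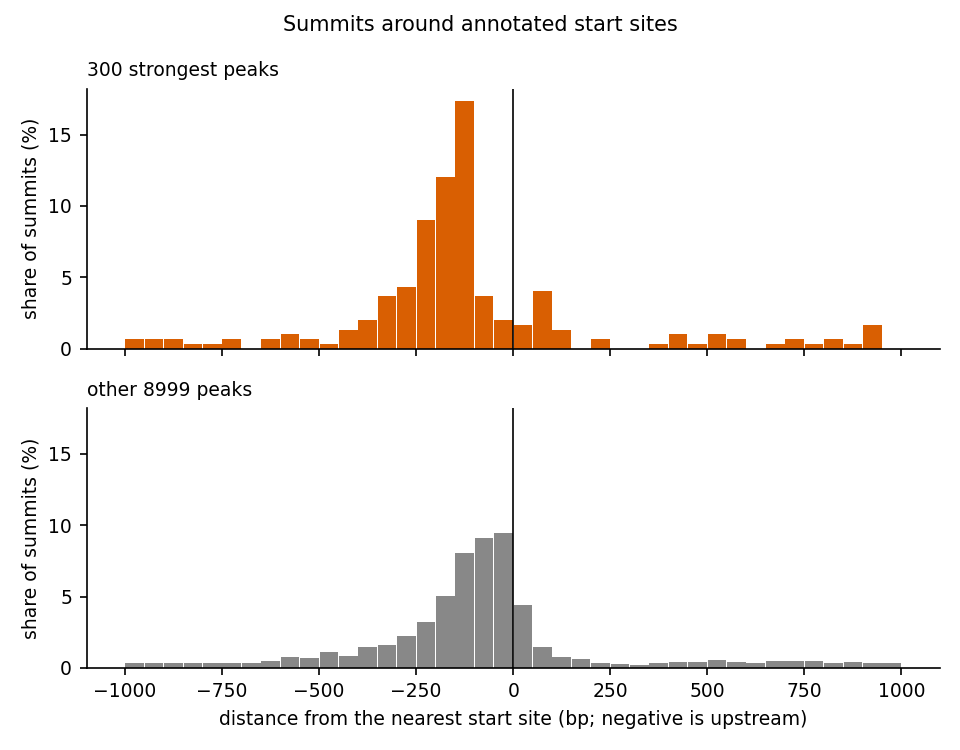
Share of all summits (percent) in 50 bp bins of distance from the nearest start site of any gene, negative values upstream, for the 300 strongest peaks (top) and the other 8999 (bottom). The upper distribution is centred upstream, with a median of -151 bp among summits within 500 bp, and has few summits at the start site itself, while the lower one reaches closer to it (median -87 bp).

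Many of the strongest peaks lay at promoters that a pair of genes shares. At least 2 protein-coding genes had a start site within 1000 bp of the summit for 96 of the 300 (32.0%, against 24.0%, difference 7.96 points, 2.86 to 13.5). Head-to-head start sites at most 1000 bp apart were found at 90 (30.0%, against 21.7%, difference 8.25 points, 3.27 to 13.7), with 27.0% in the replicate 2 and 30.0% in the replicate 3 list. The median gap between those start sites was 278 bp against 315 bp, and 70 of the 90 summits lay between them. Among summits in the promoter class alone the head-to-head share was 46.2% against 44.0% (difference 2.21 points, -5.00 to 9.56), so a difference was not shown once only promoters were compared. The count of protein-coding genes within 1000 bp was 0 for 91 summits, 1 for 113, 2 for 92 and 3 or more for 4.

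The 10 strongest shared promoters beyond rank 15 are given with the roles of the genes where these are known. At rank 16 (3L, summit 5139499, signal value 4604) the summit was -104 bp from Tcs5, a kinase gene of tRNA modification, and -120 bp from CHMP2B of the membrane-scission complex ESCRT-III. CG13390 and CG17294 shared rank 20 (4248), and at rank 25 (3965) CG18428 lay opposite eIF4EHP, a cap-binding translational repressor gene, at -139 and -237 bp. Rank 30 (3821) lay upstream of both SLC5A11, a sugar transporter family gene (-158 bp), and CG8419 (-881 bp), which point away from each other but are farther apart than the 1000 bp set for a head-to-head pair. At rank 33 (3678) CenG1A, an Arf GTPase-activating protein gene, faced the mitochondrial ribosomal gene mRpS23. CG11309 and CG7632 shared rank 36 (3592). Rank 38 (3R, summit 8650971, 3572) lay -113 bp from SLIRP2, a mitochondrial RNA-binding protein gene, and -175 bp from Mkk4, which encodes a kinase that activates JNK. Rank 41 (3483) lay between PIG-F of GPI-anchor synthesis and the mitochondrial protease gene Lon, rank 42 (3482) between Pal1, an enzyme gene of peptide amidation, and Pdrg1, and rank 43 (3422) at mRpL23 and CG9004, 62 bp inside mRpL23 and -112 bp from CG9004. At each of these the peak cannot be given to 1 gene of the pair.

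The genes at the 300 peaks were counted in 2 ways. The nearest protein-coding gene differed between most members: 274 genes in all, of which 77 have only a CG number as a name. With all start sites within 1000 bp, 309 genes had a member, 2.21% of 13968 protein-coding genes and 5.05% of the 6122 genes with any IDR summit that close. Of the 309, 10 are overlapping entries of the trans-spliced mod(mdg4) locus under the single peak at rank 292, which leaves 299. These 2 percentages are the background for the lists of genes below. The lists were chosen with earlier results of these data known, and some genes, such as CycE and sgg, recur between them. Their shares rest on few genes each and are a description, with no test.

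Chromatin genes had a higher share with a member than all genes, by less when only genes with an IDR peak were counted. In a list of 79 chromatin, insulator and Polycomb or Trithorax genes, 7 had a member within 1000 bp (8.86%, against 2.21% of all genes). Since 71 of the 79 had some IDR peak, the share among those was 9.86%, against 5.05% of all genes with an IDR peak. Beyond rank 15 these were brm, the ATPase of the SWI/SNF remodeller (rank 56, signal value 3103, shared with the Golgi GTPase gene Arl1), ph-d (rank 58), Cp190, an insulator protein gene (rank 76, 2817), E(z), the H3K27 methyltransferase gene (rank 135, 2336), and Ino80, a remodeller ATPase gene (rank 252, 1779). A wider set of 27 chromatin genes, drawn up from the members themselves and counting introns and nearest genes at any distance, took in 30 of the 300 peaks. It includes trx, the Trithorax H3K4 methyltransferase gene (intron, rank 74, 2850), wde, a cofactor gene of H3K9 methylation (rank 83, 2745), the SWI/SNF subunit gene osa (ranks 111 and 121), the H3K36 demethylase gene Kdm2 (rank 114), and JIL-1, a histone H3 kinase gene (rank 189). Within simj, a subunit gene of the NuRD deacetylase complex, there were 3 intron peaks, at ranks 61, 71 and 115 (signal values 2974, 2899 and 2522). The AAA+ ATPase gene pont and the deacetylase gene Sirt6 shared the peak at rank 103 (2580).

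Signalling genes with a member included casein kinase and stress kinases. Of 106 kinase, phosphatase and signalling genes 9 had a member (8.49%, against 2.21%), which is 10.7% of those with an IDR peak, against 5.05%. They are Gprk2, the gene of a G protein-coupled receptor kinase (rank 13), the casein kinase gene gish (rank 34, signal value 3644, ranks 32 and 39 in replicates 2 and 3), Mkk4 (rank 38, replicate ranks 52 and 30), p38a (rank 55, 3153, replicate ranks 70 and 48), the EGF ligand gene spi (rank 196, 2007), the cyclin gene CycE (rank 202, 1972), edl, an antagonist gene of MAP kinase signalling to Ets factors (rank 235), the GSK3 gene sgg (rank 242, 1806) and Raf (rank 300). A set of 9 genes of receptor tyrosine kinase and Ras signalling, chosen from the members, covered 11 peaks. Besides spi, edl and Raf these were the adaptor gene Shc (rank 69, 2920), Dok (rank 198), the GTPase-activating protein genes RapGAP1 (rank 59, 3032) and RasGAP1 (1981), the tyrosine kinase gene Btk (rank 181), and aos, a secreted EGF receptor inhibitor gene (intron, rank 140, 2291).

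Genes of stress, damage and immune responses made a set of 15 with 16 peaks, also chosen from the members. It holds the bZIP factor gene Atf3 (rank 60, signal value 3023), the eIF4E kinase gene Lk6 (rank 26, 3962, rank 26 in both replicates), and cbt (ranks 5 and 281). Weaker members were NFAT, a Rel-family factor gene (rank 116), the small heat shock gene Hsp27 (rank 139, 2306), the JNK scaffold gene POSH (rank 156), imd of the innate immune pathway (rank 223), the kinase gene Mekk1 (rank 224), Nuak, an AMPK-related kinase gene (rank 233), Keap1 of the oxidative stress response (rank 243), Sesn (rank 257), REPTOR, a factor gene downstream of TOR (rank 273), and foxo (rank 297, 1659), with an offset of -3347 bp.

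Developmental regulators were present at a like share. Of 106 genes of sequence-specific factors 9 had a member within 1000 bp (8.49%, against 2.21%), and of the 68 with some IDR peak this is 13.2%, against 5.05%. These were cbt (through its promoter peak at rank 281), Atf3 (rank 60), the HMG-box gene Sox14 (rank 64, signal value 2949), E(spl)m3-HLH and E(spl)m7-HLH, Notch target genes for repressors (ranks 128 and 219), the paired-box gene Poxm of muscle (rank 152), Eip75B, an ecdysone-induced nuclear receptor gene (rank 249), brk, a repressor gene of BMP targets (rank 250), and REPTOR (rank 273). Outside that list or distance, members lay at chn, a zinc finger gene of the nervous system (rank 63, 2950), slp2 (rank 186), shn, a zinc finger partner gene of Mad (ranks 124 and 245), and Hr3 (rank 81), Hr4 (rank 209) and gce (rank 99), receptor genes of the ecdysone and juvenile hormone responses. The ecdysone-induced transporter gene E23 held rank 37 (3584). For RNA control, the strongest beyond rank 15 was msi, the Musashi gene of asymmetric division (rank 19, 4264, replicate ranks 20 and 21). It was followed by eIF4EHP, larp (rank 86, 2721), the ribosome-biogenesis factor gene eIF6 (rank 107), elav, the neuronal RNA-binding protein gene (rank 143, 2275), and Tis11 of mRNA decay (intron, rank 244).

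Metabolic and organelle genes were also present. A set of 14 genes, mostly of sugar, glycogen and lipid metabolism, was drawn up from the members, so each has a peak by construction. It had 14 peaks between ranks 53 and 285, led by aay, the phosphoserine phosphatase gene (rank 53, signal value 3160). It includes the lipase gene bmm (intron, rank 80, 2763) and the glycolytic genes Gapdh2 (rank 94, 2656), Hex-A (rank 133, 2351), Ldh (rank 165, 2176) and Eno (rank 171, 2130), all with summits between -213 and -170 bp. Of 75 mitochondrial ribosomal protein genes 5 had a member (6.67%, and 9.09% of those with an IDR peak), namely mRpS10, mRpL41, mRpS23, mRpL23 and mRpL24 (ranks 4 to 131). Other mitochondrial genes at members were PTPMT1 of cardiolipin synthesis, opposite the ER degradation gene Hrd3 (rank 47, 3280), and Coq4 of coenzyme Q synthesis (rank 191). A set of 20 membrane traffic and glycosylation genes, also drawn up from the members, covered 18 peaks, whereas the vesicle traffic list had 2 members of 132 genes (1.52%, below the 2.21% of all genes). They include C1GalTA, a core galactosyltransferase gene (rank 39, 3527), the reticulon gene Rtnl1 (rank 84), the endocytic gene Rme-8 (rank 85), the Golgi tether gene fws (rank 109) and alphaCOP, a coat protein gene (rank 154).

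The remaining lists ranged from no member to shares above the background. Cytoplasmic ribosomal protein genes had some IDR peak in 85 of 91 cases but no member. A count of 0 of 91 allows up to 3.30% by the rule of 3 over the number of genes, which is not a Wilson interval. The strongest peak of these genes, at RpS27, held rank 302, so the 0 depends on where the set ends. Structural cuticle genes (0 of 121) and chemoreceptor and odorant-binding genes (0 of 231) had none either, and few of them had any IDR peak (6 and 14). By the same rule the cuticle count allows up to 2.48%, above the background of 2.21%, and the chemoreceptor count up to 1.30%. Oxidative phosphorylation had 1 of 91 genes (ND-MWFE, rank 271), the proteasome and ubiquitin list 1 of 101 (Fbw5, rank 14), the cell cycle and DNA replication list 1 of 106 (CycE), and vesicle traffic 2 of 132. Small GTPases had 2 of 75 (2.67%, near the background of 2.21%) and general transcription factors 4 of 100 (4%), led by Ssl1 (rank 6). Splicing and RNA-binding factors had 3 of 60 (5%, and 6% of the genes with an IDR peak, against 5.05%). Translation factors had 5 of 84 (5.95%, and 8.20% of those with an IDR peak). Clock and mRNA decay genes had 3 of 37 (8.11%, and 11.1% of those with an IDR peak). That share is about as high as in the chromatin and signalling lists but comes from 3 genes, cu, PNPase and sgg. CCR4, Dcp1, Dcp2, Smg1 and nos were listed too but not found by symbol, so they are not among the 37.

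Some genes had several members. The nearest gene was shared by 2 or more members at 19 genes, together 45 peaks. The cell cycle and identity regulator gene tara had 5, at ranks 145, 167, 188, 204 and 210 (signal values 1942 to 2261), spread over 15097 bp of 3R. The forkhead gene CHES-1-like had 4 over 10765 bp of X (ranks 208 to 272), chinmo 3 over 10661 bp of 2L (ranks 21, 194 and 237), and sbb 3 over 22230 bp. The insulin-binding protein gene ImpL2 had intron peaks at ranks 185 and 270, and osp had peaks at ranks 44 and 258 that lay 14662 bp apart. At 13 places 2 members had summits within 2000 bp of each other. The Polycomb-group gene ph-p had peaks at ranks 12 and 87 with summits 644 bp apart, on either side of a start site (-448 and 424 bp). CG9663 had ranks 49 and 127 in 1 interval with summits 209 bp apart, which is 1 region entered in the list with 2 summits.

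The summits were poor in G and C, in a deeper dip than at the other peaks. Within 100 bp of the summit the mean G+C content was 31.3% (median 30.3%), against 34.4% (median 33.8%) in the other peaks. It was 31.2% for the 300 strongest of replicate 2 and 31.1% for those of replicate 3, lists that mostly hold the same peaks. In 50 bp bins the 300 had 27.4% and 26.9% on either side of the summit against 32.9% and 33.3%, with standard errors over peaks of at most 0.526. From 100 to 149 bp away on the plus side the order turned, with 43.9% against 40.0%, and from 101 to 150 bp on the minus side it was 43.1% against 39.3%. Beyond 250 bp both sets lay between 43.9% and 46.0%. Soft-masked repeat bases made up 28.2% of the central windows against 22.6%. By kind of place, the median G+C was 29.9% against 34.3% at head-to-head promoters, 31.3% against 35.8% at one-way promoters and 30.1% against 32.3% in introns. In intergenic sequence it was 32.3% in both sets (23 members), so no difference was seen there.

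**Figure D3:**
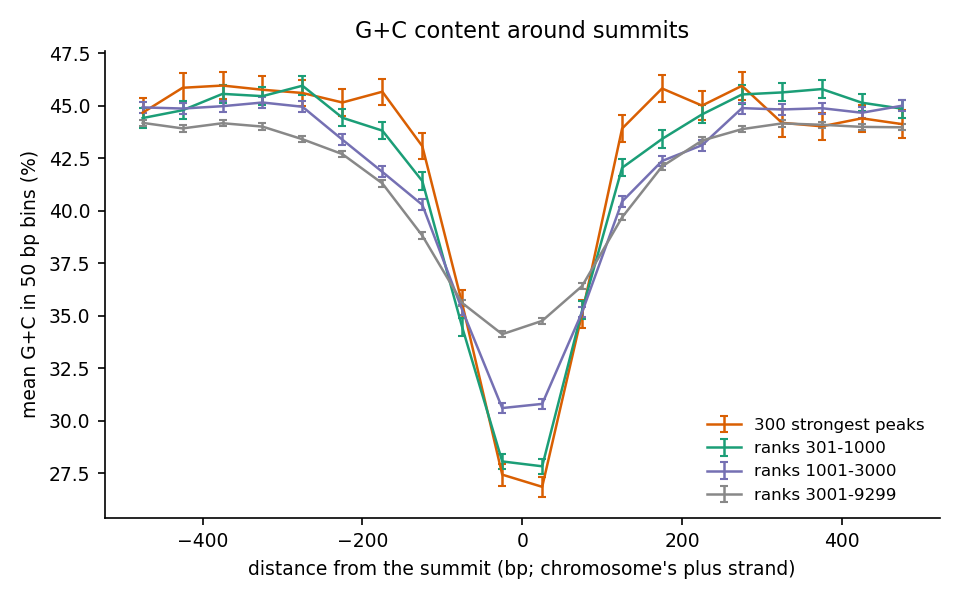
Mean G+C content (percent, with standard errors over peaks) in 50 bp bins out to 500 bp on either side of the summit, for the 300 strongest peaks and 3 tiers of weaker ones. The strongest peaks have the lowest value at the centre (26.9%, against 27.8% at ranks 301 to 1000) and recover to about the level of the flanks within 150 bp, and the dip is shallower at ranks 3001 to 9299.

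The elements of broadly active promoters were rarer at the strongest summits than at the others, and TATAAA, the TATA box sequence, was more frequent. Consensus sequences were searched on both strands within 100 bp of the summit. The DRE (TATCGATA) was in 7 of 300 windows (2.33%, against 6.02%, difference -3.69 points, -4.99 to -1.24). It was in 1.33% of the 300 strongest windows of replicate 2 and 2% of those of replicate 3. The Motif 1 core (GGTCACACT) was in 1 (0.333%, against 3.69%, difference -3.36 points, -3.85 to -1.78). Motif 7 was in 7 (2.33% against 6.20%) and CGATA, which DRE contains, in 70 (23.3% against 32.5%). TATAAA was in 144 (48%, against 38.6%, difference 9.35 points, 3.67 to 15.1). The E-box CAGCTG (4.67% against 8.86%) and CACGNG, bound by E(spl) repressors (4.67% against 9.07%), were rarer too. The CACGNG share was 7% for the 300 strongest of replicate 2, with an interval of 4.62 to 10.5 that includes 9.07, and 5.33% for those of replicate 3. Over the 600 strongest peaks it was 8.33%. Limited to promoter-class windows the order was the same, with 3.80% against 11.6% for DRE, 0 of 184 against 7.17% for the Motif 1 core, 3.80% against 10.5% for Motif 7 and 48.9% against 36.2% for TATAAA. The shares moved with rank: DRE was at 3.00%, 5.25% and 6.60% at ranks 301 to 1000, 1001 to 3000 and beyond, the Motif 1 core at 0.714%, 2.40% and 4.43%, and TATAAA at 45.7%, 41.9% and 36.8%. CTCF had no match in the 300 windows (0.467% in the other peaks), and differences whose intervals include 0 were found for the sequence of the early activator Zelda (CAGGTAG) and for that of AP-1 (TGANTCA). The same held for the Polycomb recruiter Pho (GCCATTT) and for GATA factors (AGATAAG). It also held for Motif 6 and for the E-box CACGTG. The CRE (TGACGTCA) was in 3 windows (1% against 0.300%). The lower G+C content of these windows moves with the shares of the DRE, the Motif 1 core, Motif 7, CGATA and TATAAA. Near start sites the windows also lay farther upstream, with a median summit offset of -151 bp against -87 bp. They therefore cover different stretches of the promoter in the 2 sets, and where TATAAA lay relative to the start site is not given here. The parts of G+C content and of position in these shares were not tested.

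**Figure D4:**
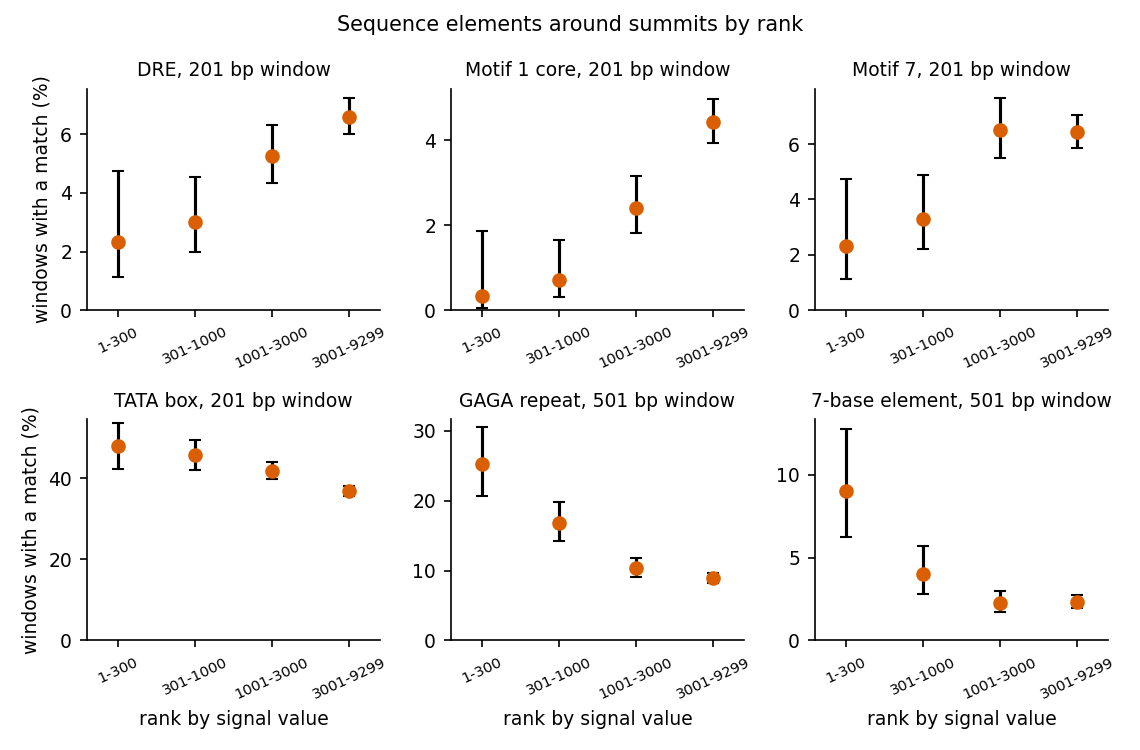
Share of windows (percent, with 95% Wilson intervals) with a match to 6 sequence elements, in 4 tiers of rank by signal value, within 100 bp of the summit for the DRE, the Motif 1 core, Motif 7 and the TATA box and within 250 bp for the GAGA repeat and the 7-base element. The first 3 are lowest at the 300 strongest peaks and the last 3 highest, with 25.3% for the GAGA repeat.

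In a wider window, GAGA repeats were more frequent at the strongest peaks, with a share that fell step by step with rank. Within 250 bp of the summit GAGAGAG was in 76 of 300 windows (25.3%, against 9.85%, difference 15.5 points, 10.9 to 20.7), where the central windows had shown 3.67% against 2.70%. This window was compared with the other peaks after the data had been examined. The share was 28.7% for the 300 strongest of replicate 2 and 25.3% for those of replicate 3, and 16.9%, 10.4% and 8.89% in the weaker tiers. It was alike in promoter-class windows (25% against 8.92%) and elsewhere (25.9% against 10.7%). The nearest GAGAGAG lay a median of 140 bp from the summit, against 144 bp at the other peaks. Though the medians were alike, more of the sites lay between 51 and 150 bp from the summit in the 300. These were 42 of 76 sites (55.3%), against 347 of 867 (40.0%), with no interval computed for the difference. At ranks 301 to 1000 the share was 35.0%, at ranks 1001 to 3000 38.9% and beyond 41.0%. It therefore did not fall step by step with rank. At the intron peak of Lk6 a repeat lay 85 bp from the summit, and at the promoter of Btk 72 bp from it. CAGCTG, rarer at the centre, was more frequent in the wider promoter-class windows (41.8%, against 28.9%, difference 13 points, 5.97 to 20.3). DRE and the Motif 1 core remained rarer at this width (5.67% against 9.41%, and 3.00% against 6.48%), while TATAAA no longer differed beyond its interval (63.7% against 59.6%, difference 4.05 points, -1.63 to 9.38). The flanks that the wider window adds were richer in G and C at the 300, with 45.8% against 42.3% from 150 to 199 bp on the plus side. The part of this in the shares of GAGAGAG and CAGCTG was not tested.

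CTACGCC was found by comparing all sequences of 6 to 8 bases between the 300 windows and the others, so its share describes the windows it was chosen in. It was within 100 bp of the summit in 15 of 300 (5% against 0.711%), 12 of them at promoters and 3 in introns, and within 250 bp in 27 (9% against 2.43%). The 300 strongest of replicates 2 and 3 gave 9% and 8.67%. At ranks 301 to 1000, peaks that also took part in the search, the wider share was 4%, and beyond that 2.25% and 2.32%. The element lay beside the summit, with a median distance of 87 bp against 147 bp, and 19 of 27 sites between 51 and 150 bp away. It also had an orientation: in 21 of 27 sites (77.8%, interval 59.2 to 89.4) it read away from the summit, with its 5′ end nearer to the summit, against 126 of 219 (57.5%, 50.9 to 63.9) at the other peaks. Between 51 and 150 bp these were 18 of 19 against 63 of 94. It was followed by any 2 bases and TG in 18 of 27 sites against 64 of 219. At ranks 301 to 1000, 23 of 30 sites read away from the summit and 15 of 30 were followed by TG in that spacing. Of the 27 sites, 21 lay within 500 bp of a protein-coding start site, at a median of -48 bp, and 17 of those upstream. The G-rich and C-rich short sequences AGGGG (21.0% against 11.8%) and AACCCC (10% against 3.37%) came from the same search. No factor is named for any of them here.

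Both replicates found all 300 peaks, and also 8738 of the other 8999. Of the 300 members, 267 were among the 300 strongest of replicate 2, 285 among those of replicate 3, 253 among both and 1 among neither. Ranks ran from 1 to 882 in replicate 2 (median 149.5) and from 1 to 426 in replicate 3 (median 150.5). Summits were a median of 7 bp from the matching summit of replicate 2 and 4 bp from that of replicate 3, and within 50 bp for 295 of the 300 in replicate 2 and for all but 2 in replicate 3. The IDR list is drawn from both replicates, so this agreement is partly built in. The 2 ranks were within 2 times of each other for 91.0% of the 300 and 92.4% of the other peaks found in both lists. Among the first 8 ranks, CG11050 had rank 2 in replicate 2 and 12 in replicate 3, CG14100 had 5 and 1, and mRpL41 had 18 and 4. CG11309 held ranks 15 and 51, Rme-8 192 and 58, and the glycolytic gene Gapdh2 45 and 140. The semaphorin receptor gene PlexA, the single member on chromosome 4 (rank 289, summit 1027278), was at 882 and 198.

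**Figure D5:**
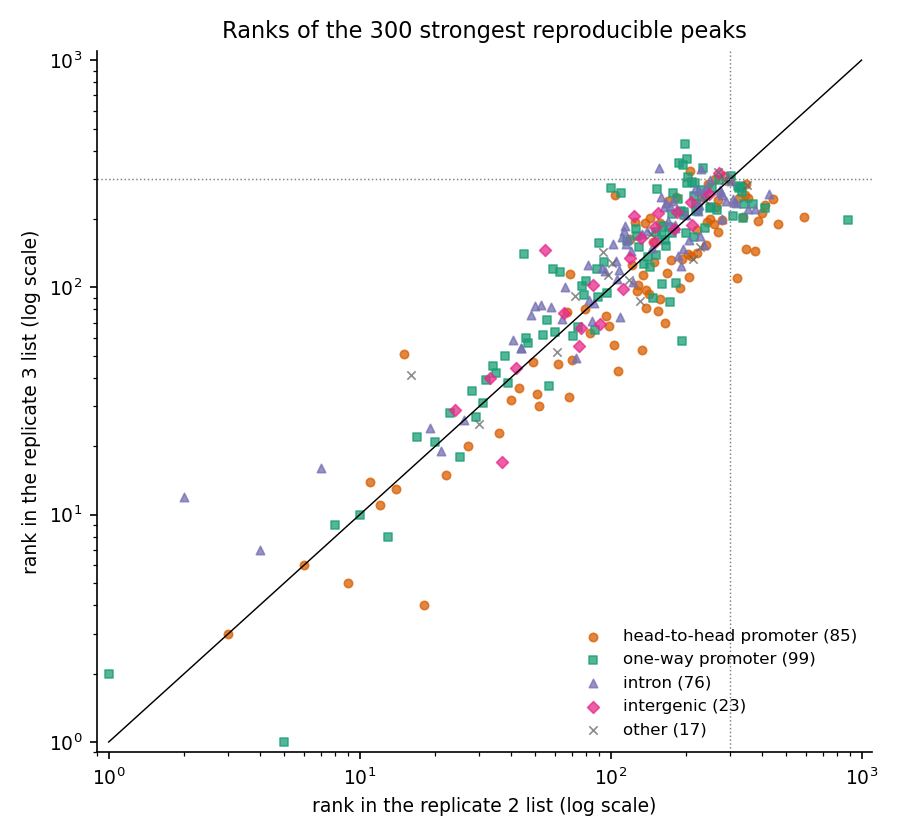
Rank of each of the 300 peaks in the replicate 2 list (x axis) and the replicate 3 list (y axis), both on log scales, by kind of place, with the line of equal rank and dotted lines at rank 300. Most points lie within 2 times of the line, and head-to-head promoters lie below it (stronger rank in replicate 3) more often than intron and intergenic peaks.

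The direction of these rank differences moved with the kind of place. Of the 85 members at head-to-head promoters, 62 had the stronger rank in replicate 3 (72.9%). At one-way promoters it was 40 of 99 (40.4%), in introns 25 of 76 (32.9%) and in intergenic sequence 6 of 23 (26.1%). Among the other peaks head-to-head promoters and introns stood in the opposite order, at 48.3% and 67.3%. Between these stood ranks 301 to 1000, with 64.3% at head-to-head promoters and 50.8% in introns. One-way promoters of the other peaks were at 45.3%, still below their head-to-head promoters, and their intergenic peaks were at 71.4%. The shared pairs Shc and Atat (ranks 133 and 53 in replicates 2 and 3) and brm and Arl1 (107 and 43) show the first direction, and the intron peaks of Gug, an Atrophin corepressor gene (50 and 83), and simj (48 and 76) the second. These counts compare 1 library with 1 library and are a description, with no test. The part of depth and other library properties in these differences was not tested.

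The 300 peaks were spread over all large arms. There were 64 on 2L, 54 on 2R, 58 on 3L, 74 on 3R, 49 on X, 1 on chromosome 4 and 0 on Y. On 2L the share was 21.3%, against 17.7% of the other peaks, and on X it was 16.3% against 19%.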

How the data were processed

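ChIP-seq peak lists of 2 biological replicates (replicates 2 and 3, 1 group) were analysed on dm6. Each list gives a signal value and a −log10 q-value per peak, both made by the authors' peak caller and deposited in narrowPeak columns. Per the deposited text notes, each list was called from alignments and 1 further file, and the IDR list was derived from the replicate lists and the pooled list. The caller, aligner, settings and IDR threshold are not given in the sources used here. The replicate lists hold 30000 peaks each and the IDR list 9299. Signal values were compared within a list only, and read depth is unknown. The 300 peaks with the highest signal value were taken. Summits were placed on Ensembl release 115 genes (18277, of which 13968 are protein-coding, transposable elements left out), with promoters within 500 bp of a protein-coding start site. Sequence was read from the RefSeq Release 6 assembly 100 bp on each side of the summit. The 16 consensus sequences were searched on both strands, and the 16 gene lists were matched by symbol. Of the listed symbols, 12 were not in the annotation and were left out of the list sizes. Genes named were the nearest genes of ranks 16 to 75, list members and role sets, with exceptions in the text chosen after their values were seen. Members and lists were chosen with earlier results of these data known. The 300 strongest peaks of each replicate gave the replicate spread. They overlap the members and are no independent evidence. Python 3.11.15, numpy 2.4.6, scipy 1.17.1 and matplotlib 3.10.9 were used, and the code was tested on simulated data.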

Additional observations from a re-analysis of the deposited data

How the results depend on the processing

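Of 174 recomputed values for 29 results, 125 stayed within the limits set for each and 49 moved. These are values of the 300 peaks alone, so a change of direction against the other peaks could not show in them. That comparison was repeated only for the wider windows, where CAGCTG, rarer at the centre (4.67% against 8.86%), was more frequent (30.3% against 23.8%). Of the 49, 39 came from consensus shares, which scale with the window. The promoter share was 50.7% at 250 bp and 69.7% at 1000 bp, the median offset -134 bp at 250 bp, and the head-to-head share 35.7% with a gap of up to 2000 bp. Genes with a member numbered 157 for the 150 strongest peaks and 590 for the 600 strongest. Mean G+C was 31.5% for the 150 strongest, 27.2% with 50 bp on each side of the summit and 39.4% with 250 bp, and leaving out 1 replicate gave 31.1% to 31.2%. With 50 bp on each side the shares were 0% for the DRE, 12% for CGATA, 0.333% for Motif 7 and 31.7% for TATAAA. With 250 bp they were 5.67% for the DRE, 47.7% for CGATA, 3% for the Motif 1 core, 10% for Motif 7 and 63.7% for TATAAA. For the 150 strongest peaks the Motif 1 core was at 0% and TATAAA at 54%. The wider windows hold more sequence by construction, and the cause of the other moves was not tested. No paired analysis was possible because the series has 1 group. Read depth is unknown, so limits on weak peaks cannot be given.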
